A study of Mus musculus with 9 samples.

Results

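The replication-dependent histone genes encode the histones that package newly copied DNA. The members were the protein-coding genes of GRCm38 whose symbol begins with H2ac, H2bc, H3c or H4c and a number, or is H1f1 to H1f6. This gave 63 of 21887 genes: 6 for the linker histone H1, 17 for H2A, 16 for H2B, 12 for H3 and 12 for H4. Their chromatin was read in lung endothelial cells isolated from wild-type (WT) mice, with no treatment and no age in the labels. A methylation (H3K4me3) and the acetylations H2AK5ac, H4K8ac, H3K27ac, H3K23ac, H3K18ac, H3K14ac and H3K9ac were targeted, and a control antibody (IgG) was used, with 1 library each. The assay was ACT-seq, in which the antibody brings a Tn5 transposase fused to Protein A/G to the marked chromatin, where it cuts and tags the DNA. With 1 library per target no value has a replicate error, and no test was run.

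Core histones H2A, H2B, H3 and H4 form the octamer around which nucleosomal DNA is wrapped, and H1 binds the linker DNA. Most of their genes lie in clusters, are transcribed mainly in S phase and give mRNAs without a poly(A) tail, which end in a stem-loop bound by SLBP. Several have testis forms made in the germ line, among them H1f6 (H1t), H2ac1 (TH2A) and H2bc1 (TH2B). H3K4me3 and acetylation of histone tails are marks of active promoters.

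Peaks were compared through 8 peak lists joined in the deposited table. A list takes its name from the library whose depth-scaled reads were densest over its unshared bases, those that no other list covers. These were 11.9% (H3K27ac-rich) to 77% (H3K14ac-rich) of the bases of a list. The density was fitted across the genome and not at the members alone. So "H3K4me3-rich" is a measured property of those bases and not a record of how the list was called. The lead over the second library ran from 1.98 times (H3K27ac-rich, IgG second) to 23.8 times (H2AK5ac-rich). Library totals ran from 365999 reads for IgG to 10044130 for H3K14ac. Lung endothelial markers (Cdh5, Pecam1, Kdr, Tek, Tie1 and Erg) averaged 7.50 lists at their ends. Leukocyte markers had 2.50, epithelial markers 4.50 and mesenchymal markers 5.50. Sftpc, the surfactant protein C gene of alveolar epithelium, had peaks of all 8 lists. The part of such cells in the histone values was not tested.

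The promoters that best show the differences among members are printed here, from RefSeq (GRCm38.p6), each as the 250 bases before the start site, 5′ to 3′. Capitals mark TATAAA (the core-promoter TATA box), CCAAT (NF-Y box), ATTTGCAT (octamer), GGTCCG (HINFP site), AAACACA (H1 box), TTTGGCGC and TTTCCCGC (E2F sites), on either strand. H2bc22 is shown because peaks of 6 lists span the whole gap to its divergent partner, and H2bc1 because the like gap of the testis pair had no peak. H1f2 and H1f6 contrast a somatic H1 promoter under 7 lists with a testis H1 promoter under 0. H4c18 carries a HINFP site, H4c2 had no H3K4me3-rich peak, and H3c6 was covered over its whole 300-base promoter by 6 lists.
H2bc22 (chr13:21787238-21787487, plus strand): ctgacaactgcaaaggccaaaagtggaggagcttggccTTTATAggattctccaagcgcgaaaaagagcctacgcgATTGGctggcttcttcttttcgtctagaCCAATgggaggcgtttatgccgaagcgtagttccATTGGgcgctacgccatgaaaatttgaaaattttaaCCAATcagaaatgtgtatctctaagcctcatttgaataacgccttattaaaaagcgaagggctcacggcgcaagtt
H2bc1 (chr13:23934157-23934406, minus strand): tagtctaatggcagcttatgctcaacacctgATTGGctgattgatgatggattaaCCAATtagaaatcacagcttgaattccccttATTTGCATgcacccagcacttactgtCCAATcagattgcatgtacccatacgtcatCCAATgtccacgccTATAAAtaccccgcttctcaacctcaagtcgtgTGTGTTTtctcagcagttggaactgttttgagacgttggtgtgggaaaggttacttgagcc
H1f2 (chr13:23738557-23738806, plus strand): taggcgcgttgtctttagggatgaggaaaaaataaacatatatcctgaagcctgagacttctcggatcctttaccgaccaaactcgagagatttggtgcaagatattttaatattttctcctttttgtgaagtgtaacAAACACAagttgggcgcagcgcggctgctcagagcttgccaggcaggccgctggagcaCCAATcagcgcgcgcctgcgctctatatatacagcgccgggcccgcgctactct
H1f6 (chr13:23695561-23695810, plus strand): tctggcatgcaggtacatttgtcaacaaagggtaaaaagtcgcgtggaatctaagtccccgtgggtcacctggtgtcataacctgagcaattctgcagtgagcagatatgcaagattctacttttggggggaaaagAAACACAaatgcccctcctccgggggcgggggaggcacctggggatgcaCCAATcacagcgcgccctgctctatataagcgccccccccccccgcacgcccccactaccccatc
H4c18 (chr13:21832198-21832447, minus strand): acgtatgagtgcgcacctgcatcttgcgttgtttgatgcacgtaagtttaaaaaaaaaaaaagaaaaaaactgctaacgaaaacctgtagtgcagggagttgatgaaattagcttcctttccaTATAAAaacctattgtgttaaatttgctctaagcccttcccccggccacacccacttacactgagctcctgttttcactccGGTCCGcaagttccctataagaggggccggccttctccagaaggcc
H4c2 (chr13:23756687-23756936, plus strand): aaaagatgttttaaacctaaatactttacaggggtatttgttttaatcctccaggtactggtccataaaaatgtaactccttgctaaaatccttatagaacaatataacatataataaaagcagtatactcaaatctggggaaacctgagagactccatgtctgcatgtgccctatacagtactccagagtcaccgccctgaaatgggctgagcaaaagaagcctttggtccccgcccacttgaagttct
H3c6 (chr13:23562386-23562635, minus strand): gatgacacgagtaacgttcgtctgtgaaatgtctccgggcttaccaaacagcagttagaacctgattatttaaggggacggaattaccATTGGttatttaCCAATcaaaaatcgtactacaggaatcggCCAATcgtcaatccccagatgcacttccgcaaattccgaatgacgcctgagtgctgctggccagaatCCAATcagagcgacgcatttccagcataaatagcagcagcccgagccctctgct

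Peaks of most lists lay at nearly every member. Within 2 kb of the gene ends, the members averaged 7.40 ± 0.993 lists with a peak (SD, n = 63 genes; median 8), and all protein-coding genes had 4.92 ± 3.00 (median 6). All 8 lists had a peak at 36 of 63 members (57.1%), against 31.1% of all genes. All 7 lists other than H2AK5ac-rich had a peak at 52 members, against 44.4% of all genes. A further 22 members had 7 lists, and 3 had 6. H2bc1 and H2ac1 had 3. No member had fewer, while 9.33% of all genes had 0. The members are short (median 492 bp) and crowded, and 59 of 63 share window bases with another member, so that 1 peak may count for several genes. With bases nearer to another gene left out, all 8 lists had a peak at 15 members (23.8%), against 27.2% of all genes. Under that setting the members' share with all 8 lists was below that of all genes, and it was also below (6.35%, against 9.96%) when only peaks wider than the smallest width of their list were counted. The share with the 7 lists other than H2AK5ac-rich was 66.7% of members, against 41.5% of all genes, with bases nearer to another gene left out, and 57.1%, against 33.2%, with wide peaks alone.

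Each list was also read by itself. H3K4me3-rich peaks lay at 60 members, against 61.5% of all genes. H3K9ac-rich peaks lay at 61 members, against 50.3%. H3K18ac-rich peaks lay at all 63 members, against 68.4% of all genes. H3K23ac-rich, H3K27ac-rich and H4K8ac-rich peaks lay at 61 members each, against 57.4%, 63.1% and 66.9% of all genes. H3K14ac-rich peaks lay at 57 members, against 85.0% of all genes, so this share was close to the background. H2AK5ac-rich peaks lay at 42 members, against 39.8%, and wide ones at 6 (9.52%, against 12.7% of all genes). With bases nearer to another gene left out, H3K4me3-rich peaks lay at 59 members (93.7%), against 59.8% of all genes, H3K18ac-rich peaks at 59 (93.7%), against 66.5%, and H3K9ac-rich peaks at 56 (88.9%), against 48.4%. H3K14ac-rich peaks then lay at 49 members (77.8%), against 83.1% of all genes.

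**Figure D1:**
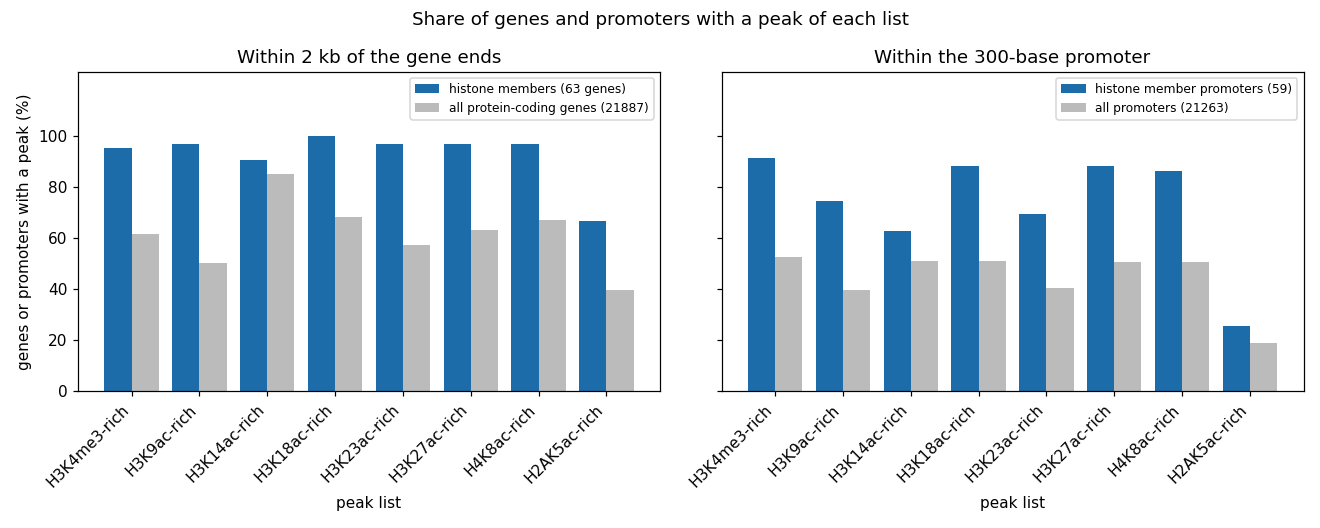
Percent of histone members (blue) and of all genes (grey) with a peak of each list, within 2 kb of the gene ends (left) and in the 300-base promoter (right). At the gene ends the members exceed all genes most in the H3K9ac-rich list (96.8% against 50.3%) and least in the H3K14ac-rich list (90.5% against 85.0%).

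The peaks also covered more of the members' windows. H3K4me3-rich peaks covered a median of 1212 bp per member, or 24.4% of its window, and 539 bp or 6.87% over all genes. H3K9ac-rich peaks covered a median of 928 bp (20.2%) per member and 113 bp (1.44%) over all genes. Members had a median of 1016 bp of H3K23ac-rich, 826 bp of H4K8ac-rich, 791 bp of H3K27ac-rich and 765 bp of H3K18ac-rich peaks, which is 16.1% to 19.5% of the window. All genes had 2.57% to 4.42% in these 4 lists. The H3K14ac-rich median was 435 bp in members and 442 bp over all genes. Member windows were shorter (median 4492 bp, against 8002 bp over all genes), so by share of the window the members were higher in this list too (9.36%, against 5.80%). The H2AK5ac-rich median was 129 bp in members, the width of 1 smallest peak, and 0 bp over all genes. With bases nearer to another gene left out, the median share for H3K4me3-rich peaks was 22.3% of the window in members and 5.42% over all genes. For H3K14ac-rich peaks it was 7.31% and 5.52%. In bases, the H3K14ac-rich median was then lower in members (193 bp, against 386 bp), while the H3K4me3-rich median was higher (572 bp, against 342 bp).

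Single peaks in member windows were less often of the smallest width than those of the whole list in 7 of the 8 lists. The difference was largest for H3K4me3-rich peaks. The whole list also holds peaks away from gene ends, and peak widths in the windows of all genes were not compared. Wide peaks were usual there too: H3K4me3-rich peaks above the smallest width lay at 55% of all genes, against 61.5% with any such peak. Of 63 H3K4me3-rich peaks in member windows, 2 (3.17%) had the list's commonest and smallest width of 157 bp, against 55.9% of the whole list. Their median width was 591 bp in member windows and 157 bp in the whole list. The widest spanned H4c1 and H3c1 (chr13:23760768-23762406, 1639 bp), and 1.30% of the list was at least as wide. The same 2 genes lay under the widest H3K9ac-rich peak in member windows (1524 bp). H2ac6 and H2bc4 shared the widest H3K14ac-rich (608 bp) and H4K8ac-rich (864 bp) peaks. H2ac6 and H2bc4 are named because of these values. Median widths in member windows and in the whole list were 248 and 112 bp for H3K18ac-rich, 216 and 102 bp for H4K8ac-rich and 248 and 192 bp for H3K27ac-rich peaks. They were 280 and 204 bp for H3K9ac-rich and 258 and 206 bp for H3K23ac-rich peaks. H3K14ac-rich peaks had a median of 138 bp in both, with 66.3% at the smallest width in member windows and 80.9% in the whole list. H2AK5ac-rich peaks had a median of 129 bp in both, with 33 of 37 (89.2%) at the smallest width in member windows, against 76.1% of the whole list.

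**Figure D2:**
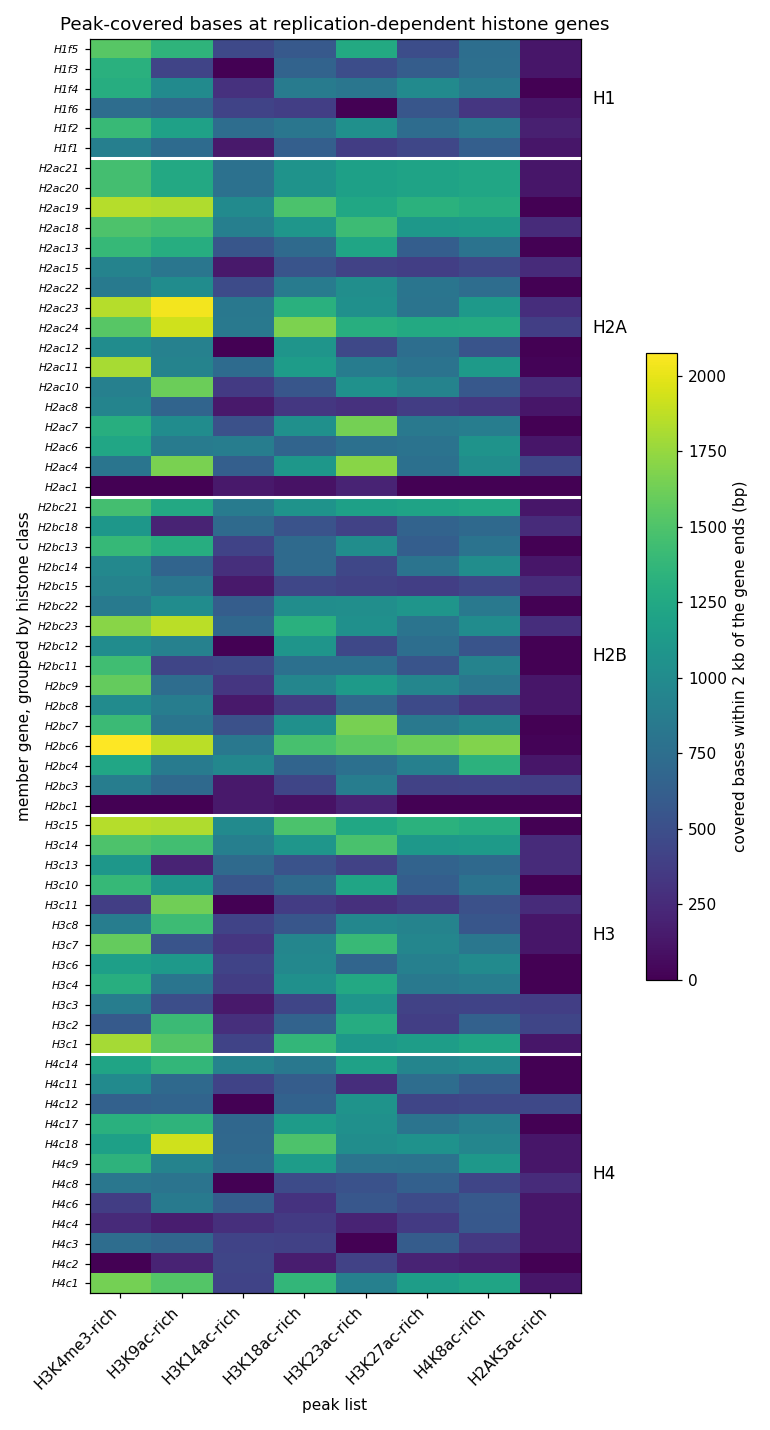
Bases covered by each peak list (columns) within 2 kb of the ends of each of the 63 members (rows, grouped by histone class and in genome order within a class). Colour gives the covered bases from 0 to 2077 bp. H2ac1 and H2bc1 are dark in nearly every column, and the H2AK5ac-rich column stays at or under 452 bp for all members.

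H4 genes, whose product pairs with H3, ranged widely. H4c1 had 1639 bp of H3K4me3-rich, 1524 bp of H3K9ac-rich, 1379 bp of H3K18ac-rich, 1213 bp of H4K8ac-rich, 1157 bp of H3K27ac-rich, 903 bp of H3K23ac-rich, 414 bp of H3K14ac-rich and 129 bp of H2AK5ac-rich peaks. H4c18 had 1927 bp of H3K9ac-rich and 1496 bp of H3K18ac-rich peaks, with 1184 bp of H3K4me3-rich. H4c2 stood at the other end. It had 435 bp of H3K14ac-rich, 412 bp of H3K23ac-rich, 207 bp of H3K27ac-rich, 204 bp of H3K9ac-rich, 173 bp of H4K8ac-rich and 167 bp of H3K18ac-rich peaks, and no H3K4me3-rich or H2AK5ac-rich peak. H4c2 was the only member other than the testis pair without an H3K4me3-rich peak in its window. H4c11 had 7 lists with 993 bp of H3K4me3-rich peaks, and H4c14 on chromosome 3 had 7 with 1212 bp. As a class the 12 H4 genes had the lowest median of H3K4me3-rich bases (910 bp), against 1164 to 1305 bp in the other classes.

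H3 genes encode the canonical H3 that enters chromatin at replication. H3c1, which lies beside H4c1, had 1524 bp of H3K9ac-rich and 1796 bp of H3K4me3-rich peaks. H3c15 and H3c14 on chromosome 3 had 1842 and 1495 bp of H3K4me3-rich peaks and 1329 and 1111 bp of H3K27ac-rich peaks. H3c10 had 1389 bp of H3K4me3-rich peaks and no H2AK5ac-rich peak. H3c11 differed in kind. Its H3K9ac-rich peaks covered 1623 bp and its H3K4me3-rich peaks 387 bp, and it had no H3K14ac-rich peak. H3c6 had 1119 bp of H3K9ac-rich and 1171 bp of H3K4me3-rich peaks, and no H2AK5ac-rich peak.

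H2A and H2B genes often stand head to head and share their peaks. H2bc6 had the most covered bases of all members, with 2077 bp of H3K4me3-rich, 1859 bp of H3K9ac-rich, 1686 bp of H4K8ac-rich and 1611 bp of H3K27ac-rich peaks, in a window of 8002 bp. H2ac24 came next with 1927 bp of H3K9ac-rich, 1668 bp of H3K18ac-rich and 1535 bp of H3K4me3-rich peaks in 4452 bp. H2bc23 had 1864 bp of H3K9ac-rich and 1707 bp of H3K4me3-rich peaks. The pair H2ac12 and H2bc12 had the same peaks over both windows: 1087 bp of H3K18ac-rich, 1011 bp of H3K4me3-rich and 910 bp of H3K9ac-rich, and none of the H3K14ac-rich or H2AK5ac-rich lists. H2ac4 had 1710 bp of H3K23ac-rich and 1661 bp of H3K9ac-rich peaks, above its 808 bp of H3K4me3-rich. On chromosome 3, H2ac19 had 1842 bp and H2ac18 1495 bp of H3K4me3-rich peaks, H2bc21 1455 bp and H2bc18 1100 bp. H2bc18 had 204 bp of H3K9ac-rich peaks, the width of 1 smallest peak.

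H1 genes had lists in their 2 kb windows much as the core histones did (mean 7.50 ± 0.548 lists, SD, n = 6 genes). Part of this came from bases nearer to other genes. With those bases left out, H1f1 (named after its values were seen) had 2 lists and H1f6 had 1. The H1 median was then 7, as in each of the other classes. H1f5 had 1541 bp of H3K4me3-rich, 1353 bp of H3K9ac-rich and 1262 bp of H3K23ac-rich peaks. H1f2 had 1397, 1191 and 1044 bp in the same lists. H1f3, named after its values were seen, was the H1 gene without an H3K14ac-rich peak.

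Testis forms stood apart at their own promoters. H2bc1 and H2ac1, 281 bp apart at their start sites, each had 138 bp of H3K14ac-rich, 104 bp of H3K18ac-rich and 206 bp of H3K23ac-rich peaks in their windows, which is 1 smallest peak of each list, and none of the other 5 lists. H1f6 had 7 lists in its window, with 739 bp of H3K4me3-rich peaks, but these lay toward its neighbour H4c3 (named after its values were seen), which had the same 739 bp. With bases nearer to H4c3 left out, 138 bp of H3K14ac-rich peaks remained at H1f6. Without the 3 testis forms, the other 60 members had 7.55 lists on average ± 0.594.

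The 300-base promoter, from 250 bases before to 50 after the start site, was read where RefSeq gives one, in 59 promoters of 58 members (H2bc6 has 2). Peaks of at least 5 lists, a limit chosen after the values were seen, lay in 52 of the 59 (88.1%), against 45.9% of all 21263 promoters. Peaks of at least 7 lists lay in 45.8% of member promoters, against 32.6% of all, and peaks of all 8 lists in 3 (5.08%), against 13.8% of all. H1f6, H2ac1 and H2bc1 were the only member promoters with 0 lists, and 35.2% of all promoters had 0. H3K4me3-rich peaks lay in 54 promoters, against 52.5% of all. H3K18ac-rich and H3K27ac-rich peaks lay in 52 each, against 51.1% and 50.5%, and H4K8ac-rich peaks in 51, against 50.7%. H3K9ac-rich peaks lay in 44, against 39.8%, and H3K23ac-rich peaks in 41, against 40.3%. H3K14ac-rich peaks lay in 37 (62.7%), against 51.0%. The share was lower in members with wide peaks alone (30.5%, against 39.5%) and where 0.5 or more of the promoter had to be covered (18.6%, against 31.8%). These peaks covered a mean of 91.6 of 300 bases in members and 97.4 in all promoters. H2AK5ac-rich peaks lay in 15 (25.4%), against 18.8%, with means of 18.9 and 24.0 bases. Wide ones lay in 1 (1.69%), against 6.49% of all promoters. By contrast H3K4me3-rich peaks covered a mean of 216 bases of member promoters and 131 of all promoters.

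Classes differed more at promoters than in the 2 kb windows, which most members share in part with another member. The 6 H1 promoters had 3.83 lists on average ± 2.93 (SD), and those of H2A, H2B, H3 and H4 had 6.00 ± 1.90, 6.07 ± 1.83, 6.20 ± 1.55 and 6.18 ± 0.874. H1, H2A and H2B each include a testis promoter with 0 lists, which weighs most among the 6 of H1. The other H1 promoters had 2 to 7 lists. H3K4me3-rich peaks covered a mean of 102 bases of H1 promoters, 242 of H2A, 269 of H2B, 208 of H3 and 174 of H4. In the H1f5 promoter only H3K4me3-rich (106 bases) and H3K23ac-rich (20 bases) peaks were found, although its window had all 8 lists. H1f1, named after its values were seen, likewise had 97 and 196 bases of the same lists and no other. H1f2 had 7 lists in its promoter, with 172 bases of H3K4me3-rich and 221 of H3K14ac-rich peaks. Of the H2A promoters, H2ac4 had 3 lists and no H3K4me3-rich peak, with 206 bases of H3K23ac-rich peaks. The H4c2 promoter had 206 bases of H3K23ac-rich, 158 of H3K18ac-rich, 156 of H4K8ac-rich, 147 of H3K14ac-rich and 131 of H3K27ac-rich peaks. It had none of the H3K4me3-rich or H3K9ac-rich lists. H3c3, also named after its values were seen, had 57 bases of H3K4me3-rich and 129 of H2AK5ac-rich peaks and no other list.

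**Figure D3:**
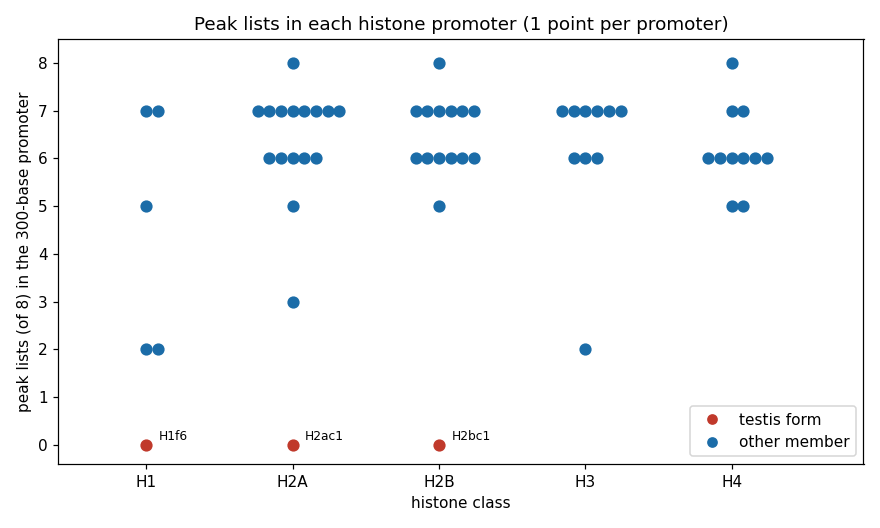
Number of peak lists (of 8) with at least 1 base in the 300-base promoter, 1 point per promoter, by histone class, with testis forms in red and other members in blue. The testis forms lie at 0, and 52 of the 56 other promoters lie at 5 or more.

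Around the start sites of the 56 promoters other than testis forms, H3K4me3-rich peaks covered 94.6% of start sites, against 49.6% of all. H3K27ac-rich coverage was highest 50 bases before the start, with 85.7% of members and 45.4% of all genes. At the same point H3K18ac-rich peaks covered 80.4% and 44.2%, and H4K8ac-rich peaks 78.6% and 43.2%. H3K9ac-rich peaks covered 62.5% of member start sites, against 33.3% of all. H3K14ac-rich coverage reached 39.3% in members and 38.1% over all genes at its highest points. At 500 bases past the start, H3K27ac-rich coverage was 7.14% in members and 13.6% over all genes, while H3K4me3-rich coverage was 37.5% and 35.4%. Farther out, at 1000 bases before the start, the members were higher than all genes in 7 of the 8 lists. H4K8ac-rich peaks, for example, covered 23.2% against 3.94%, but the H2AK5ac-rich shares were both small (1.79% against 1.03%). The H3K14ac-rich list was lower in members at this point (3.57% against 4.88%), and its order changed from point to point. It was higher in members at 1100 bases before the start (10.7% against 4.43%) and 1000 past it (19.6% against 6.9%). Neighbouring members lie within this distance.

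**Figure D4:**
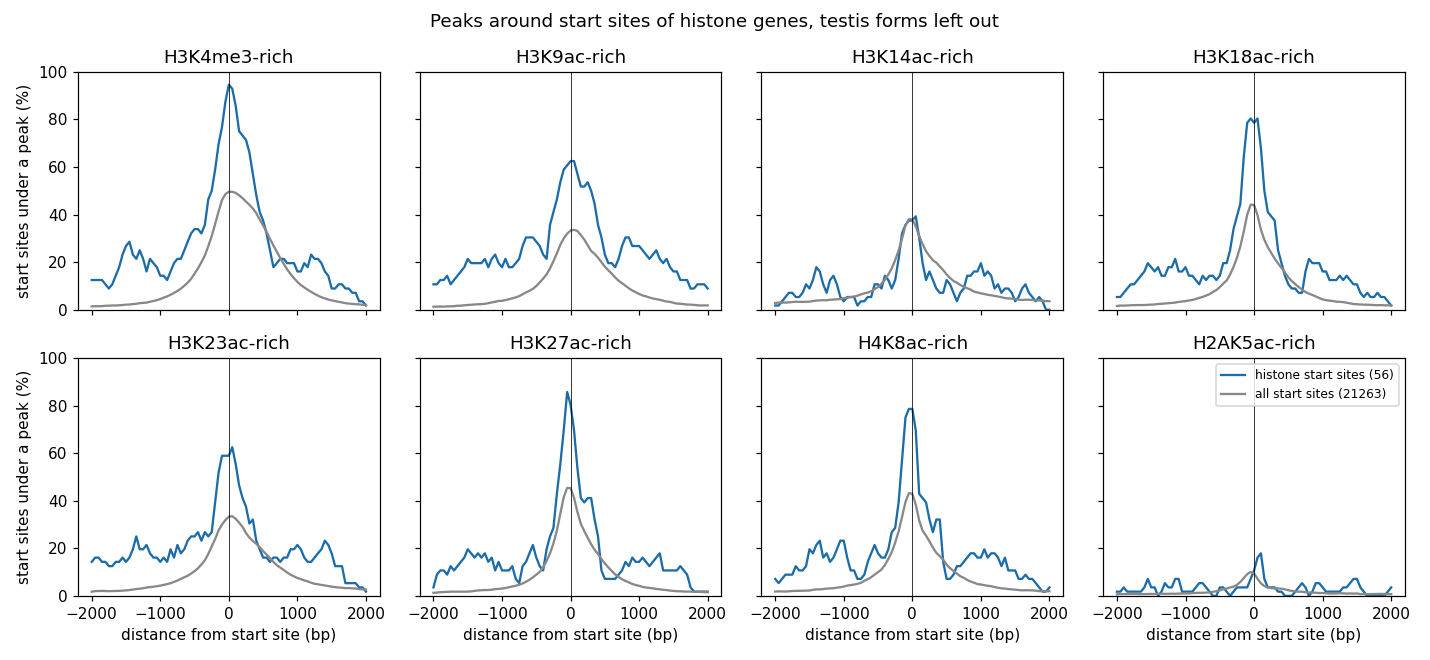
Percent of start sites under a peak of each list, by distance from the start site in bp along the direction of transcription, for the 56 histone start sites other than testis forms (blue) and all 21263 start sites (grey). The blue line peaks at 94.6% in the H3K4me3-rich panel, and the blue and grey lines reach 39.3% and 38.1% in the H3K14ac-rich panel.

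Head-to-head H2A and H2B genes show how peaks sit on shared promoters. In 9 such pairs the start sites lay 164 to 281 bp apart. In the 8 pairs other than the testis pair, H3K4me3-rich peaks covered 100% of the gap, and 1 peak spanned both start sites. At H2ac22 and H2bc22, 240 bp apart, and at H2bc23 and H2ac23, 168 bp apart, the gap was covered 100% by 6 lists: H3K4me3-rich, H3K9ac-rich, H3K18ac-rich, H3K23ac-rich, H3K27ac-rich and H4K8ac-rich. H3K14ac-rich peaks covered 57.3% and 51.5% of these gaps. At H2ac12 and H2bc12, H3K18ac-rich, H3K27ac-rich and H4K8ac-rich peaks also covered the whole 178 bp, H3K9ac-rich peaks covered 33.5%, and H3K23ac-rich and H3K14ac-rich peaks 0%. The gap between H2bc1 and H2ac1 had 0% in every list. H2AK5ac-rich peaks entered the gap of a single pair, H2ac8 and H2bc8 (50.8%). H2ac8, H2bc8, H2ac22, H2bc22 and H2ac23 are named here because of these values.

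The letters of the promoters differed by class. GGTCCG, the site known for the H4 factor HINFP, was in 10 of 11 H4 promoters and in 10.5% of all promoters, counting both strands. In 6 of the 10 it began at position -47 or -46 from the start site, among them H4c18, whose printed sequence has it at -46. H4c2 had it at 7, past the start, and none of the 7 motifs in its printed bases. CCAAT, bound by NF-Y, was in every H1 (6), H2A (17), H2B (15) and H3 (10) promoter but in 3 of 11 H4 promoters, against 38.2% of all. ATTTGCAT, the octamer read by Oct-1 in H2B genes, was in 7 of 15 H2B and 6 of 17 H2A promoters and in no other class, against 1.66% of all. AAACACA was in 5 of 6 H1 promoters, against 6.15% of all. TATAAA was in 34 of 59 member promoters, against 12.6%. Of the E2F letters, TTTGGCGC was in 0 (0.635% of all) and TTTCCCGC in 1, that of H4c1 (1.41% of all). No motif contains another, and a match is only a match of letters.

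Promoters with and without peaks could hold the same letters. H1f2, under 7 lists, had AAACACA at -112 and CCAAT at -54, and H1f6, under 0, had AAACACA at -114 and CCAAT at -65. H2bc1, without peaks, had TATAAA at -94, ATTTGCAT at -164 and 4 CCAAT boxes on the strands together, while H2bc22, under 7 lists, had 4 CCAAT boxes, TATAAA on the reverse strand at -212 and no octamer. No member promoter was 90% or more identical to another in an ungapped comparison. Such a comparison can miss copies that are shifted or have gained or lost bases, so it does not show that the promoters are distinct.

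The members lie in 3 blocks. The first block on chromosome 13 (21715711 to 22043658, 328 kb) holds 22, the second (23531044 to 23934913, 404 kb) 31, and chromosome 3 (96219885 to 96270192, 50.3 kb) 10. Chromosome 3 members had the highest medians in all 7 lists other than H2AK5ac-rich, with 879 bp of H3K14ac-rich and 1455 bp of H3K4me3-rich peaks. The first block had medians of 466 bp of H3K14ac-rich and 1252 bp of H3K4me3-rich peaks, and the second 377 and 940 bp in the same order. H3K4me3-rich peaks covered 26.9% of member windows on chromosome 3 and 2.87% of the block outside gene windows. In the second block the shares were 18.5% and 0.665%, and in the first 21.9% and 5.95%. Member windows filled 50.7% of the chromosome 3 block, 23.1% of the second block and 19.1% of the first, so the shares of bases they held are not alike in background. They held 90.6% and 86.9% of the H3K4me3-rich bases of chromosome 3 and of the second block, but 46.6% of those of the first. For H3K14ac-rich peaks member windows held 87.2% of the bases on chromosome 3 and 42.6% in the second block. On chromosome 3 H2AK5ac-rich peaks covered 2.02% of member windows and 3.10% of the block outside gene windows.

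Other genes between the members had fewer lists. The 10 neighbours had 4.00 lists on average ± 2.79 (SD). Hfe, the haemochromatosis gene of iron balance, had all 8, with 845 bp of H3K4me3-rich peaks. H4bc24, which lies beside H2ac24, also had all 8. It is a histone gene outside the symbol rule and is counted among the 10, so their mean is not of non-histone genes alone. Slc17a3 and Slc17a2, both solute carriers, had 1 list each, the H3K14ac-rich, as did Trim38. Overlapping peaks were joined into merged regions. Those with all 8 lists were 17 of 330 in the blocks (5.15%) and 1.31% of 819679 in the genome. The chromosome 3 block had 5 of 25. The genome count also holds regions away from gene ends, so it is not a like background for blocks crowded with genes. A merged region with all 8 lists overlapped the body of 12 of 63 members (19.0%), against 29.3% of all genes, whose bodies are longer. The longest in the blocks held H4c1 and H3c1 (1756 bp), and the next H1f2 (1581 bp).

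Genes that work with the members were read by the same measure. All 8 lists had a peak at 57.1% of members and 31.1% of all genes, and each of the lists below had a larger share than the members. Of 11 replication-independent histones, which can enter chromatin independently of DNA replication, 9 had all 8 lists. H2az1, for H2A.Z, had 2321 bp and H3f3a, for H3.3, 1649 bp of H3K4me3-rich peaks. Cenpa, the centromeric H3, and Macroh2a2 had 7. Of 23 genes of histone mRNA synthesis and processing, 15 had all 8. Ccne2, for cyclin E2, and Cpsf3, the endonuclease that cuts histone pre-mRNA, had the most covered bases among them. Lsm10, a part of the U7 snRNP, had 7 lists, and Nfyc, an NF-Y subunit, 1. Of 17 histone chaperones 13 had all 8, with Ssrp1 of the FACT complex and Hjurp highest. Hat1, a histone acetyltransferase of new H4, had 7 lists and Hira, the H3.3 chaperone, 0. For Hira and Nfyc these counts hold at the gene ends of the RefSeq table, and whether those ends are their main start sites was not tested. Of 21 S phase genes 18 had all 8, Cdt1 and Rrm2 with the most covered bases, while Mcm6 and Ccna2 had 7. These lists had H3K4me3-rich medians of 1380, 1257, 1344 and 1246 bp in the order given, and the members had 1212 bp. They differed more in H3K14ac-rich bases, with 493, 707, 821 and 743 bp, against 435 bp in members, whose windows are shorter.

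Reads could be read at few members. Regions of different lists overlap at the members, and reads that touch several identifiers were not counted, so 10.8% of the region bases in member windows lay under 1 identifier only, against 45.2% of those of all regions. An identifier with a single region was found 24 times, all on chromosome 3 and in the H3K14ac-rich list. Over these 24, H3K18ac had 69 reads (44.6 reads per 1000000 of the library, 95% Poisson interval 34.7 to 56.5). H3K4me3 had 49 reads (33.2, interval 24.5 to 43.8), H3K27ac 58 (22.9, interval 17.4 to 29.6) and H4K8ac 28 (16.0, interval 10.6 to 23.1). H3K14ac had 65 reads (6.47) and H3K23ac 13 (2.71). H3K9ac, H2AK5ac and IgG had 0 reads. Of the 24 regions 16 had no base outside other regions and could receive no read, and the other 8 had 711 such bases in all. These bases lie outside the peaks of every other list, so a 0 for H3K9ac or H2AK5ac there is no measure of these marks at the members. For the same reason the values of the other marks there do not rank those marks at the members. For IgG a count of 0 allows up to 3 reads, or 8.20 reads per 1000000 of the library. The H3K14ac and H3K23ac values lie under this limit and were not distinguishable from IgG at this depth. A single region past the end of H2bc21 (chr3:96225653-96225790) held 50 of the 65 H3K14ac reads, 48 of the 69 H3K18ac reads, 26 of the 58 H3K27ac reads and 12 of the 28 H4K8ac reads, and 0 H3K4me3 reads. Without it, a setting added after the data were seen, H3K4me3 stayed at 33.2 reads per 1000000. H3K18ac then had 13.6 (interval 8.41 to 20.8), H3K27ac 12.6 (interval 8.64 to 17.8), H4K8ac 9.14 (interval 5.23 to 14.8) and H3K14ac 1.49. The H4K8ac interval reached under the IgG limit of 8.20. The upper end of the 95% Poisson interval of IgG was 10.1. The H3K18ac and H3K27ac intervals reached under that value, and the H4K8ac value itself lay under it. The intervals cover counting error only. IgG had 74 reads in 3 of the 646 identifiers that touch member windows, and these identifiers also hold regions elsewhere.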

How the data were processed

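The deposited table holds raw read counts for 578465 region identifiers in 9 libraries, made by the authors with featureCounts 2.0.6, per the file headers, from paired-end reads without strand, each mate counted and reads on several identifiers dropped. The submitters' processing notes name STAR, MACS2 and the builds mm10 and GRCm38.p6. For peak calling, the settings and the role of IgG are not given in the sources. The identifiers hold 1309635 regions of 8 lists numbered from 1 and joined. The lists were separated by genome order, non-overlap and smallest width (Python 3.11.15, numpy 2.4.6, pandas 2.3.3), with 0 identifiers breaking order or width. On simulated lists 99.9% of 45568 regions returned to their own list, and 86.2% when the split used order alone. The simulated lists were placed independently of each other. They therefore do not measure the split where peaks of several lists crowd together, as at the members. A peak counted with at least 1 base within 2 kb of either gene end. The fixed gene lists, the alternatives and the members were chosen with earlier results of these data known. Named members are, per class and block, those with the most and fewest lists (ties by covered bases), and the testis forms. Other members are named because of their values. Of fixed lists and neighbours, 2 at each end are named.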

Additional observations from a re-analysis of the deposited data

How the results depend on the processing

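Of 196 recomputed values of 49 results, 167 stayed within 1.5 times the value given. Of 76 recomputed comparisons of the members' share with that of all genes or promoters, 8 turned from higher to lower in members. These were all 8 lists with wide peaks alone and with bases nearer to another gene left out, H3K14ac-rich peaks at gene ends with those bases left out, H2AK5ac-rich peaks at gene ends with wide peaks alone, and both lists in promoters with wide peaks alone and with at least 150 of 300 bases covered. Members with peaks of all 8 lists numbered 55 with windows of 5 kb (87.3%, against 39.8% of all genes). They numbered 4 with peaks wider than the commonest width alone (6.35%, against 9.96%). With bases nearer to another gene left out they numbered 15 (23.8%, against 27.2%). That last setting gave medians of 572 (H3K4me3-rich), 536 (H3K9ac-rich), 193 (H3K14ac-rich), 432 (H3K18ac-rich), 425 (H3K23ac-rich), 385 (H3K27ac-rich), 378 (H4K8ac-rich) and 0 bp (H2AK5ac-rich), in windows that are smaller by construction. Windows of 5 kb gave 1496 (H3K9ac-rich), 723 (H3K14ac-rich) and 258 bp (H2AK5ac-rich), and windows of 1 kb 276 (H3K14ac-rich) and 677 bp (H3K23ac-rich). Wide peaks alone gave medians of 239 (H3K14ac-rich), 610 (H3K23ac-rich) and 0 bp (H2AK5ac-rich), 6 members with an H2AK5ac-rich peak, and 18 and 1 promoters with an H3K14ac-rich and an H2AK5ac-rich peak. With at least 150 of the 300 promoter bases covered these were 11 and 0, against 31.8% and 4.4% of all promoters. Members with an H3K14ac-rich peak numbered 39 with wide peaks alone (61.9%, close to the 56% of all genes). Without the region past the end of H2bc21, added after the data were seen, reads per 1000000 were 13.6 (H3K18ac), 12.6 (H3K27ac), 9.14 (H4K8ac) and 1.49 (H3K14ac). No paired analysis was possible because each target has 1 library, and no replicate could be left out. Names of the lists come from read density and not from a record of peak calling, and IgG depth (365999 reads) limits any comparison of reads with background.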

Other observations

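Transfer RNA genes lie among the histone genes of the first block on chromosome 13, and were examined after the peaks outside the member windows had been seen. RefSeq lists 31 of them there. H3K4me3-rich peaks overlapped 21 of the 31 (67.7%), against 224 of 408 tRNA genes on the autosomes, X and Y (54.9%). For the other lists the shares of the 31 and of all tRNA genes were 48.4% and 41.9% (H4K8ac-rich), 45.2% and 41.7% (H3K18ac-rich), 35.5% and 32.4% (H3K27ac-rich), 29.0% and 30.4% (H3K9ac-rich), and 22.6% and 27.2% (H3K14ac-rich). H3K23ac-rich peaks overlapped 3 of the 31 (9.68%), against 21.6% of all tRNA genes, and H2AK5ac-rich peaks 3 (9.68%), against 4.17%. In this block 46.6% of the H3K4me3-rich bases lay in histone windows, which filled 19.1% of the block. The part of the tRNA genes in the H3K4me3-rich bases outside those windows was not tested.

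Some histone genes outside the symbol rule were read as well, chosen after the members' values were seen. H2aw had all 8 lists, with 1091 bp of H3K4me3-rich peaks. H4bc24, counted among the neighbours above, had all 8 with 1535 bp. H4f16 had 7 lists and 643 bp. H2bu2 had 2 lists, with 204 bp of H3K9ac-rich and 208 bp of H3K18ac-rich peaks and no H3K4me3-rich peak.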
